A study of Arabidopsis thaliana with 29 samples.

Results

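*DFR* (dihydroflavonol 4-reductase, AT5G42800) and *UF3GT* (an anthocyanin glycosyltransferase, AT5G54060) are a pair of structural genes of anthocyanin synthesis. They were taken by symbol from the annotation of the array, and each was measured by 1 probe set, so that 2 of the 22589 genes or unnamed probe sets tested are described here. In the TAIR10.1 annotation *DFR* lies on chromosome 5 from position 17164093 to 17166032 and *UF3GT* on the same chromosome from 21936746 to 21938396. The position of the probes within each gene is not given in the sources used here.

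Anthocyanins are red to purple flavonoid pigments that seedlings store in the vacuole. DFR reduces dihydroflavonols to leucoanthocyanidins, the step that leads away from flavonols and towards anthocyanins and, in the seed coat, proanthocyanidins. The anthocyanidin is then glucosylated, and UF3GT adds xylose to that glucose. In Arabidopsis the late genes of the pathway are known to be driven by complexes of MYB, bHLH and WD40 proteins, which jasmonate signalling releases from JAZ repressors. Ethylene is known to limit anthocyanin in Arabidopsis seedlings, and ABA is known to raise it together with sucrose.

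Whole seedlings of the Col-0 ecotype were compared on ATH1 microarrays in 3 genotypes. WT was the untransformed ecotype. *PV-NES* carried parvalbumin, a protein that binds Ca2+, with a nuclear export signal, so that Ca2+ was buffered in the cytosol. *PV-NLS* carried it with a nuclear localisation signal, so that Ca2+ was buffered in the nucleus. Each genotype was grown without hormone (control) or with 10 μM abscisic acid (ABA), 50 μM methyl jasmonate (MeJA) or 1 μM 1-aminocyclopropane-1-carboxylic acid (ACC, the precursor of ethylene) for 5 days. The ACC arrays are known from the labels alone, which give their dose and time. The 29 arrays fall into 12 groups. A transgenic group held 3 independent lines (lines 1, 7 and 11 of *PV-NES* and lines 4, 5 and 8 of *PV-NLS*), and the same lines were used under every treatment. WT was measured on 2 arrays without hormone and on 1 with each hormone. The promoter that drives parvalbumin is not given in the sources used here, and no probe set names parvalbumin, so the genotype labels could not be checked on the arrays.

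Values are log2 signals, in which a difference of 1 is a 2-fold change. The array medians ranged from 5.26 to 5.39. Arrays of 1 group correlated with r between 0.982 and 0.997 over all tested units. Between the 2 WT controls 2.57% of the tested units were over 2-fold apart, compared with 0.0398% to 0.633% between pairs of transgenic control arrays of 1 genotype. Among the MeJA arrays the pairs went up to 2.16% (*PV-NES* lines 1 and 7) and 2.85% (*PV-NLS* lines 5 and 8). A listed gene is counted as measured where the annotation names it alone for a probe set. As 8730 probe sets name no gene, other listed genes may be on the array without a name. Of the tissue markers, 2 of 14 listed leaf genes and 2 of 12 listed root genes were measured in this sense. *RCA*, which encodes Rubisco activase, lay between 11.3 and 12.6. The root hair expansin gene *EXPA7* lay between 4.43 and 6.52, and in the controls, at 4.43 to 5.10, it was below every array median. In bulk seedlings, fewer cells of a type and less RNA per cell cannot be told apart.

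*DFR* in the controls was close to a log2 signal of 8. The *PV-NES* controls held 8.10, 8.14 and 7.66 in lines 1, 7 and 11. The *PV-NLS* controls held 7.87, 8.25 and 7.89 in lines 4, 5 and 8, and the WT controls held 8.40 and 7.26. The 2 WT arrays were the highest and the lowest of the 8 controls and enclosed every transgenic line. *UF3GT* had the same order of arrays at its extremes. Its log2 signal was 6.86, 6.85 and 6.15 in the *PV-NES* lines, 6.17, 6.63 and 6.35 in the *PV-NLS* lines, and 7.01 and 5.76 in WT. The WT controls thus differed by 1.14 in *DFR* and by 1.24 in *UF3GT*, more than any 2 transgenic controls of 1 genotype.

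Calcium buffering alone gave no called difference of either gene between the controls. A gene was called where the fold change was above 2 and the adjusted p-value of limma under 0.05. *DFR* differed by 0.14 (95% interval -0.64 to 0.91) between *PV-NES* and WT, by 0.18 (-0.60 to 0.95) between *PV-NLS* and WT and by -0.04 (-0.73 to 0.66) between *PV-NES* and *PV-NLS*. *UF3GT* differed by 0.24 (-0.39 to 0.87), by -0.00337 (-0.64 to 0.63) and by 0.24 (-0.32 to 0.81) in the same order. Among all units, the share called in either direction was 0.00443% for *PV-NES* against WT and 0% for the other 2 control comparisons, in which 8 and 40 units passed at an unadjusted p under 0.05 and a fold above 2. The intervals of both genes reach as far as 0.95 on the log2 scale. The sign of the differences from WT turned with the WT control used. Without WT control 1 or 2, *DFR* differed from WT by 0.71 or -0.43 in *PV-NES* and by 0.74 or -0.39 in *PV-NLS*, and *UF3GT* by 0.86 or -0.38 and by 0.62 or -0.63.

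**Figure D1:**
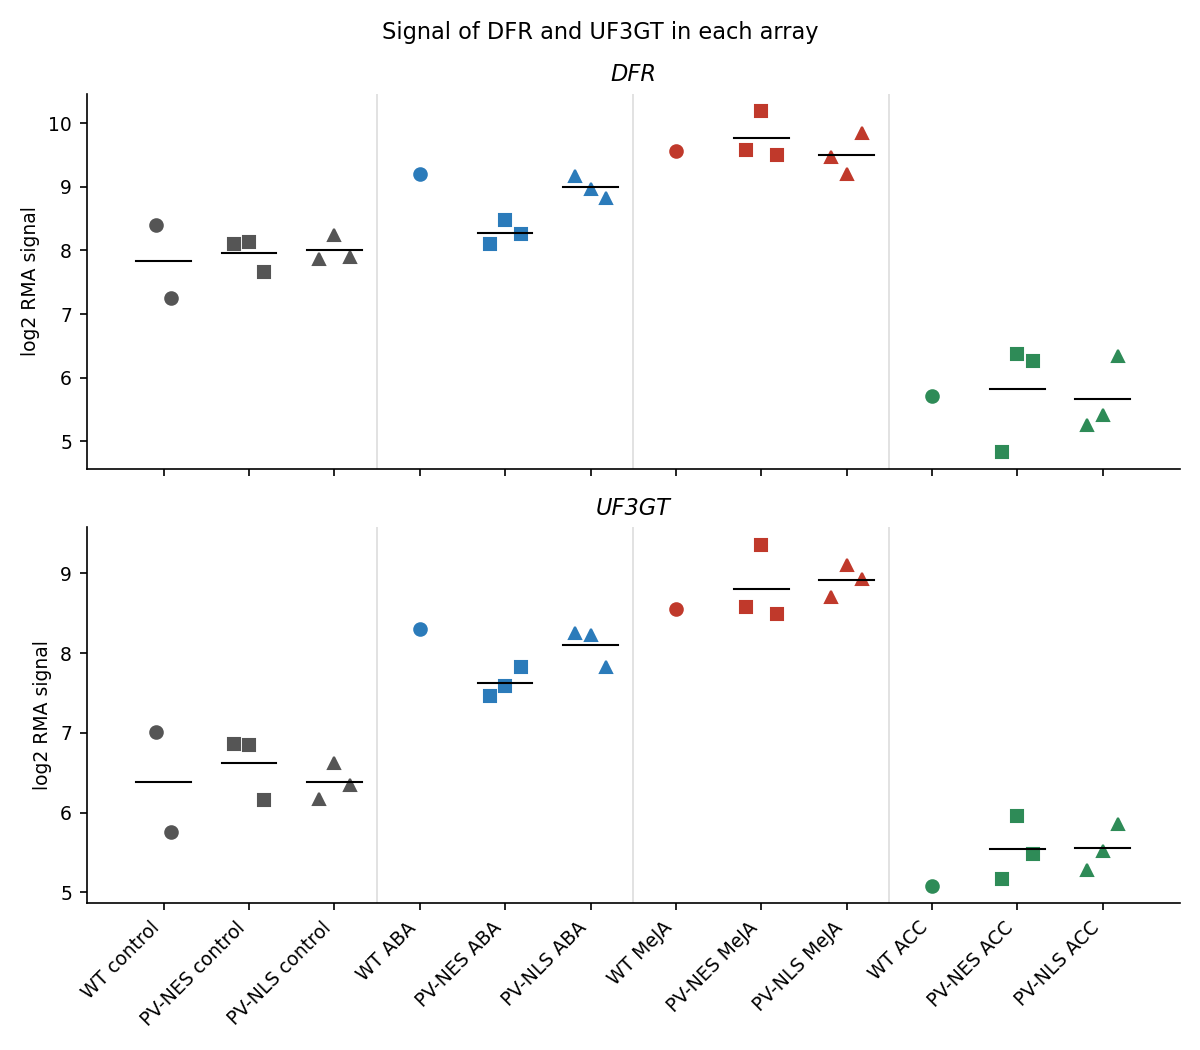
Log2 RMA signal of *DFR* (top) and *UF3GT* (bottom) in each of the 29 arrays, by group. Points are arrays (circles WT, squares *PV-NES*, triangles *PV-NLS*, in order of replicate number) and black lines are group means where a group has over 1 array. The MeJA groups have the highest means and the ACC groups the lowest for both genes, and ABA arrays clear the controls in *UF3GT* but not in *DFR*.

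MeJA gave the highest signals of both genes. *DFR* reached 9.58, 10.20 and 9.50 in *PV-NES* lines 1, 7 and 11, 9.46, 9.19 and 9.84 in *PV-NLS* lines 4, 5 and 8, and 9.56 in WT. *UF3GT* reached 8.58, 9.36 and 8.49 in the *PV-NES* lines, 8.70, 9.11 and 8.93 in the *PV-NLS* lines, and 8.55 in WT. All 7 MeJA arrays lay above all 8 controls in both genes, by at least 0.80 in *DFR* and 1.48 in *UF3GT*. *PV-NES* line 7 was the highest array of the series in both.

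The rise of *DFR* was 3.31-fold in WT (log2 fold change 1.73, SE 0.50, adjusted p = 0.0260), 3.46-fold in *PV-NES* (1.79, SE 0.33, adjusted p = 3.47e-04) and 2.82-fold in *PV-NLS* (1.50, SE 0.33, adjusted p = 0.00150). *UF3GT* rose more, 4.49-fold in WT (2.17, SE 0.41, adjusted p = 9.60e-04), 4.55-fold in *PV-NES* (2.18, SE 0.27, adjusted p = 2.44e-06) and 5.79-fold in *PV-NLS* (2.53, SE 0.27, adjusted p = 2.27e-07). Both genes were thus called higher in all 3 genotypes, where 2.89%, 2.42% and 2.92% of all units were called higher in WT, *PV-NES* and *PV-NLS*. In the transgenic lines, set against the control array of the same line, *DFR* rose by 0.95 to 2.06 and *UF3GT* by 1.71 to 2.58, in 6 of 6 lines each. The call of *DFR* in WT rested on 1 control. Without WT control 2 the difference was 1.16 (adjusted p = 0.157), and under a variance model with trend and robust settings its adjusted p was 0.0501.

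ABA raised *UF3GT* in WT and *PV-NLS*, and *DFR* was called in no genotype. *UF3GT* held 7.46, 7.58 and 7.83 in the *PV-NES* lines, 8.25, 8.22 and 7.83 in the *PV-NLS* lines, and 8.30 in WT. All 7 ABA arrays exceeded all 8 controls, by at least 0.46, and none reached the lowest MeJA array. *DFR* held 8.10, 8.48 and 8.25 in the *PV-NES* lines, 9.17, 8.97 and 8.82 in the *PV-NLS* lines, and 9.20 in WT. In *DFR* the *PV-NES* arrays overlapped the controls, 2 of them lying within the control range, whereas the *PV-NLS* and WT arrays lay above it. The WT array with ABA, at 9.20, lay 0.01 above the lowest MeJA array of *DFR*.

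*UF3GT* rose 3.78-fold in WT (1.92, SE 0.41, adjusted p = 0.00347) and 3.29-fold in *PV-NLS* (1.72, SE 0.27, adjusted p = 7.22e-05). In *PV-NES* its log2 difference was 0.999 (SE 0.27, adjusted p = 0.0174), just under the 2-fold limit. Without line 1 or line 7 it was 1.2 or 1.13 and passed both limits, and without line 11 it was 0.66. *DFR* differed by 1.38 in WT (SE 0.50, adjusted p = 0.0807), by 0.31 in *PV-NES* (SE 0.33, adjusted p = 0.651) and by 0.99 in *PV-NLS* (SE 0.33, adjusted p = 0.0341, under the 2-fold limit). The WT value became a call without WT control 1 (1.95, adjusted p = 0.0248) and without *PV-NES* line 1 (1.38, adjusted p = 0.0457), and the *PV-NLS* value became one after quantile normalisation (1.03, adjusted p = 0.0339). Against the control of the same line, *UF3GT* was higher in 6 of 6 lines (0.60 to 2.09) and *DFR* in 5 of 6 (-0.00216 to 1.3). Of all units, 2.35%, 1.85% and 1.77% were called higher after ABA in WT, *PV-NES* and *PV-NLS*.

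ACC moved both genes the other way. *DFR* fell to 4.83, 6.38 and 6.26 in *PV-NES* lines 1, 7 and 11, 5.25, 5.41 and 6.33 in *PV-NLS* lines 4, 5 and 8, and 5.72 in WT. All 7 arrays were below all 8 controls, with a gap of 0.88. *UF3GT* held 5.17, 5.96 and 5.48 in the *PV-NES* lines, 5.28, 5.52 and 5.86 in the *PV-NLS* lines, and 5.08 in WT. Of the 8 controls only WT control 2 reached into this range, with 2 ACC arrays above it.

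*DFR* fell 4.32-fold in WT (log2 fold change -2.11, SE 0.50, adjusted p = 0.00693), 4.42-fold in *PV-NES* (-2.14, SE 0.33, adjusted p = 6.53e-04) and 5.06-fold in *PV-NLS* (-2.34, SE 0.33, adjusted p = 2.33e-04). Counted from the most negative of the 22589 units, it was number 13, 5 and 4 in WT, *PV-NES* and *PV-NLS*. *UF3GT* fell 2.48-fold in WT (-1.31, SE 0.41, adjusted p = 0.0355) and 2.12-fold in *PV-NES* (-1.09, SE 0.27, adjusted p = 0.0285). In *PV-NLS* its difference of -0.82 (SE 0.27, adjusted p = 0.0494) stayed under the 2-fold limit. Called lower after ACC were 3.41% of all units in WT, 0.363% in *PV-NES* and 0.633% in *PV-NLS*.

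The ACC calls varied with single arrays and with the test. Without WT control 1, *DFR* in WT was at -1.54 (adjusted p = 0.0997) and *UF3GT* in WT at -0.69 (adjusted p = 0.367). The *UF3GT* call in WT was also lost without *PV-NLS* line 4 (adjusted p = 0.0532) or line 5 (0.0517), with the value itself unchanged. The *UF3GT* call in *PV-NES* was lost without line 1 (-0.78, adjusted p = 0.359), line 7 (-1.18, 0.0748) or line 11 (-1.29, 0.102). By the methods' t-test on the 3 lines of each group, the adjusted p of *DFR* after ACC was 0.171 (*PV-NES*) and 0.0924 (*PV-NLS*), where that test called 0 and 1 units and limma 154 and 252. Against the control of the same line, *DFR* was lower in 6 of 6 lines, with differences between -3.27 and -1.40, and *UF3GT* in 6 of 6, with differences between -1.69 and -0.49.

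**Figure D2:**
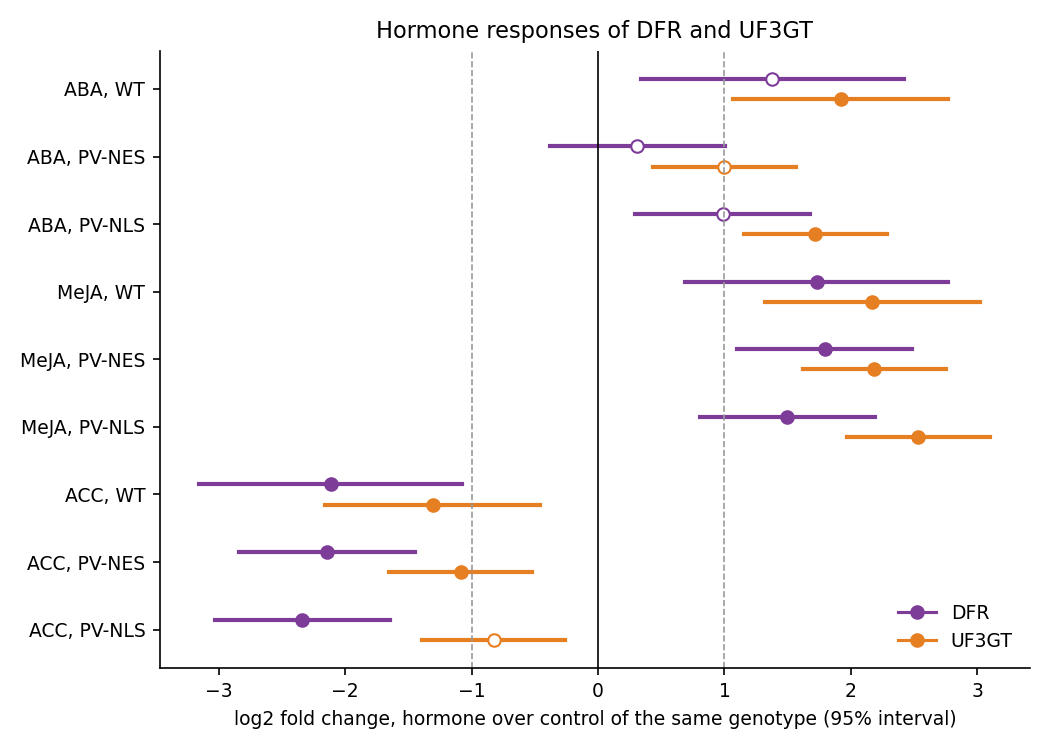
Log2 fold change of each hormone over the control of the same genotype for *DFR* (purple) and *UF3GT* (orange), with the 95% interval of limma. Filled points passed the call (over 2-fold, dashed lines, and adjusted p under 0.05). The 6 MeJA points are all filled, *DFR* is open under ABA, and *UF3GT* lies closer to 0 than *DFR* under ACC.

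The WT hormone groups had 1 array each, and their spread was taken from the other groups. With each WT hormone array fitted against the 2 WT controls alone, the differences were unchanged and the WT calls were lost. The spread between arrays then came from those 2 controls only, so such a fit could not decide the calls. The p-values of limma rest on a spread between arrays that is pooled over all groups. It comes from independent lines in the transgenic groups and from the 2 controls in WT.

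Whether calcium buffering changed a response was tested as the difference between 2 genotypes in that response. None of the 18 differences of the 2 genes was called, and the smallest unadjusted p was 0.0756. The largest in size were under ABA, where the response of *PV-NES* was lower than that of WT by 1.06 in *DFR* (-1.06, 95% interval -2.31 to 0.18, adjusted p = 0.550) and by 0.92 in *UF3GT* (-0.92, -1.94 to 0.10, adjusted p = 0.516). Against *PV-NLS* the ABA response of *PV-NES* differed by -0.67 (-1.65 to 0.31) in *DFR* and by -0.72 (-1.52 to 0.08) in *UF3GT*. For MeJA the *DFR* response of *PV-NES* differed from that of WT by 0.06 (-1.18 to 1.31), and that of *PV-NLS* by -0.23 (-1.48 to 1.02). The *UF3GT* response differed by 0.02 (-1.01 to 1.04) and 0.37 (-0.66 to 1.39). For ACC these differences were -0.03 (-1.28 to 1.22) and -0.23 (-1.48 to 1.02) for *DFR*, and 0.22 (-0.80 to 1.24) and 0.48 (-0.54 to 1.51) for *UF3GT*. These intervals are wide enough to hold differences above 2-fold.

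Over all units, 0.0266% were called in the ABA response of *PV-NES* against WT, 0.921% and 1.4% in the ACC response of *PV-NES* and *PV-NLS* against WT, and 0% in the other 6 comparisons of responses. In those 6 limma found between 30 and 209 units at an unadjusted p under 0.05 and a fold above 2. Every comparison with WT used the same 2 WT controls, so leaving out 1 of them moved the *DFR* and *UF3GT* values together, and 10 of the 12 differences from WT changed sign when some array or line was left out. The 2 that kept their sign were those of the ABA response in *PV-NES*, which ranged from -1.63 to -0.50 in *DFR* and from -1.54 to -0.30 in *UF3GT*.

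Set against each other without the controls, the hormones ordered both genes alike, with MeJA highest and ACC lowest in every genotype. MeJA minus ACC was 3.84, 3.94 and 3.84 for *DFR* in WT, *PV-NES* and *PV-NLS*, the last a 14.3-fold difference (adjusted p = 6.68e-09). For *UF3GT* it was 3.48, 3.27 and 3.36. Both genes passed the call in each genotype, as did 2.54%, 2.53% and 3.33% of all units in WT, *PV-NES* and *PV-NLS*. ABA minus ACC was also called for both genes in all genotypes, between 2.09 and 3.49, against 4.38%, 2.27% and 1.99% of all units.

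MeJA exceeded ABA past both limits only in *PV-NES*, by 1.48 in *DFR* (adjusted p = 0.00239) and by 1.19 in *UF3GT* (adjusted p = 0.00290). Without *PV-NES* line 7 the *UF3GT* value was 0.89 (adjusted p = 0.0538). In *PV-NLS* the same difference was 0.51 (adjusted p = 0.247) and 0.81 (adjusted p = 0.0203, under the 2-fold limit), and in WT it was 0.35 (0.773) and 0.25 (0.808). The background shares were 3.31%, 2.48% and 3.93% in WT, *PV-NES* and *PV-NLS*. The genotypes were not tested against each other in this difference.

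In the order of the 12 group means, *DFR* ran from 9.76 in *PV-NES* with MeJA to 5.66 in *PV-NLS* with ACC. Only 2 steps between neighbours exceeded 2 standard errors, that of 0.71 from *PV-NLS* to *PV-NES* with ABA (SE 0.33) and that of 2.01 from the WT controls to *PV-NES* with ACC (SE 0.37). *UF3GT* ran from 8.91 in *PV-NLS* with MeJA to 5.08 in WT with ACC. Its steps past 2 standard errors were that of 1.00 from *PV-NES* with ABA to the *PV-NES* controls (SE 0.27) and that of 0.82 from the *PV-NLS* controls to *PV-NLS* with ACC (SE 0.27). All other neighbours, including the 3 MeJA groups, the 3 controls and the 3 ACC groups of either gene, differed by less than 2 standard errors.

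Next, *DFR* and *UF3GT* were compared array by array. The treatments form separate clusters, so no pooled correlation over the 29 arrays was tested. Among the 8 controls the signals of both genes had r = 0.934 (exact permutation p = 7.69e-04, adjusted 0.00256) and rho = 0.905 (p = 0.00456, adjusted 0.00913), and r = 0.837 without the 2 arrays farthest in *DFR*, which were both WT. Among the 7 ABA arrays r was 0.901 (exact permutation p = 0.0113, adjusted 0.0188) and rho 0.964 (p = 0.00278, adjusted 0.00694), and r was 0.960 without the 2 farthest. The 3 *PV-NES* arrays held the lowest signals of both genes there, so that relation spans a difference between genotypes.

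With ACC the relation was weaker, with r = 0.741 (exact permutation p = 0.0657, adjusted 0.0938), rho = 0.714 (p = 0.0881, adjusted 0.110) and r = 0.572 without the 2 farthest. With MeJA it was r = 0.479 (exact permutation p = 0.290, adjusted 0.323) and rho = 0.25 (p = 0.595, adjusted 0.595). Single arrays decided the MeJA value, and both belong to the MeJA pairs that stood farthest apart over all units. It was -0.26 without *PV-NES* line 7 and 0.953 without *PV-NLS* line 5, in which *DFR* was the lowest of the MeJA arrays and *UF3GT* the second highest. Without the 2 arrays farthest in *DFR* it was 0.793.

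After subtraction of the group means, which removes genotype and treatment, 26 arrays of the groups with 2 or 3 arrays remained. *DFR* and *UF3GT* lay on the same side of their group mean in 21 of these 26 arrays. Their deviations had r = 0.776 and rho = 0.783 (permutation within groups, p = 6.60e-04 and adjusted 0.00256 for each), and r = 0.788 without the 2 farthest arrays. For each log2 unit of *DFR* deviation, *UF3GT* deviated by 0.63 in the same direction. The SD within groups was 0.47 for *DFR* and 0.38 for *UF3GT*. The 10 correlation tests were adjusted together. Leaving out 1 control array of WT, and with it the WT pair, gave r = 0.720, and leaving out any 1 line gave up to 0.839. The widest joint deviations were those of the WT controls, which were 0.57 above and below their mean in *DFR* and 0.62 in *UF3GT*, and that of *PV-NES* line 1 with ACC, which was 1.00 below its mean in *DFR* and 0.37 below in *UF3GT*.

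**Figure D3:**
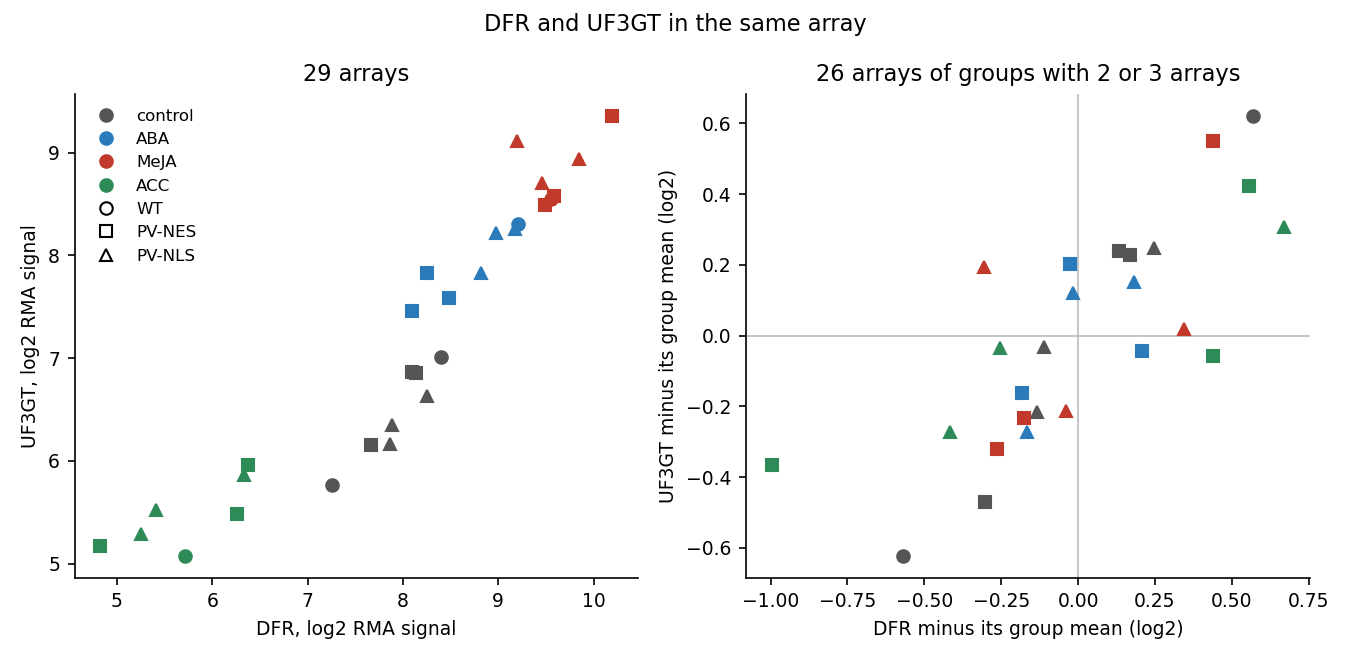
*UF3GT* against *DFR* in log2 RMA signal over all 29 arrays (left), and both as deviations from the group mean over the 26 arrays of groups with 2 or 3 arrays (right). Colours are treatments and symbols genotypes. In the right panel 21 of 26 arrays lie in the lower left or upper right quadrant.

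The size of the responses differed between both genes. The difference *DFR* minus *UF3GT* was taken within each array, which cancels what an array shares between both, and only its change is read. Over the transgenic lines this difference changed by -0.71 after ABA, by -0.71 after MeJA and by -1.29 after ACC. Each had an exact two-sided permutation p = 0.005, the smallest that 400 permutations within genotypes allow, and adjusted p = 0.005 over 3 hormones. The signed difference from the control was thus higher in *UF3GT* than in *DFR* in 6 of 6 lines for each hormone. For ABA, MeJA and ACC the changes were -0.69, -0.39 and -1.06 over the *PV-NES* lines, -0.73, -1.04 and -1.51 over the *PV-NLS* lines, and -0.54, -0.44 and -0.80 in WT.

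The 3 hormones share the same control arrays, so these 3 tests are not independent of each other. Signals near the floor of an array are compressed. With ACC the lowest signals, 4.83 in *DFR* and 5.08 in *UF3GT*, were below the lowest array median, 5.26. *DFR* went down to percentile 43.3 and *UF3GT* down to percentile 46.5 of all probe sets other than the array controls. The part of such compression in the ACC difference was not tested.

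**Figure D4:**
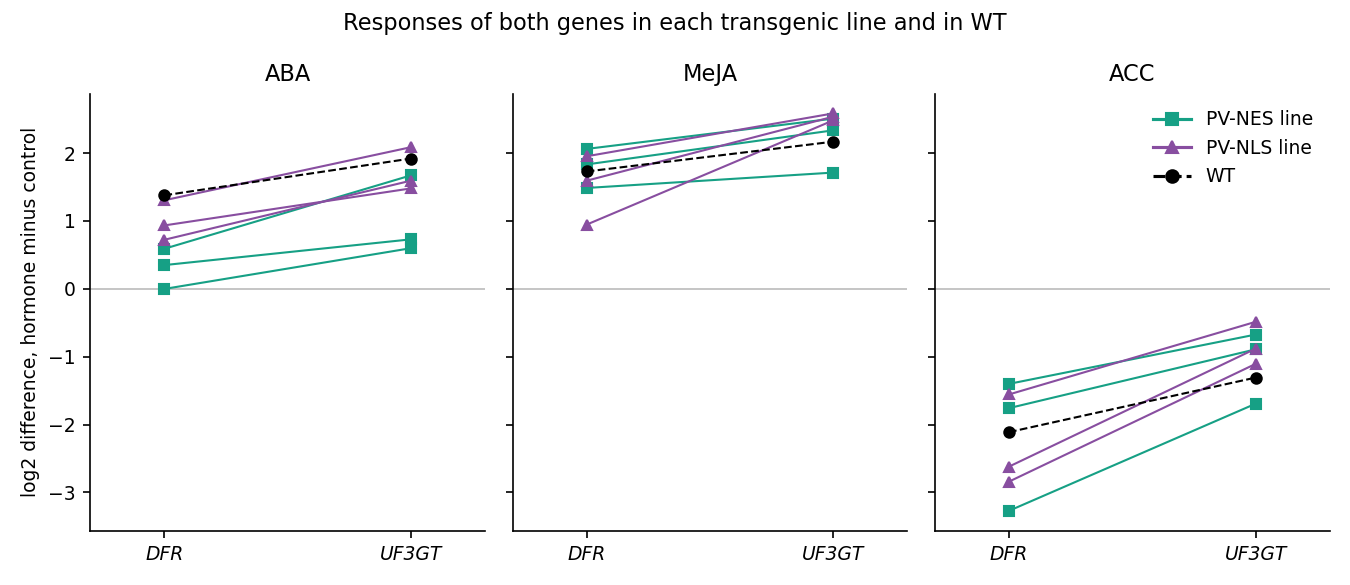
Log2 difference between hormone and control for *DFR* and *UF3GT*, joined by a line for each of the 6 transgenic lines (against the control array of the same line) and for WT (against the mean of 2 controls). Each joined line climbs from left to right, since the value of *UF3GT* was above that of *DFR* in every line under ABA, MeJA and ACC.

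Of 25 genes listed for flavonoid and anthocyanin synthesis, 10 were measured under a name of their own, *DFR* and *UF3GT* included. After MeJA 6 of the 10 were called higher in each genotype, against 2.89%, 2.42% and 2.92% of all units in WT, *PV-NES* and *PV-NLS*. The median log2 fold change of the 10 was 1.32, 1.47 and 1.38 in the same order. Without *DFR* and *UF3GT* it was 0.74, 0.98 and 0.97, and over all units 0.04, 0.03 and 0.04. Beside both members these were *UGT78D2* (flavonoid 3-O-glucosylation), *UGT75C1* (anthocyanin 5-O-glucosylation), *5MAT* (malonylation of the anthocyanin) and *UGT78D1* (flavonol 3-O-rhamnosylation). *UGT75C1* rose by 1.83, 2.39 and 2.44 and *5MAT* by 1.62, 1.63 and 2.25 in WT, *PV-NES* and *PV-NLS*. *UGT78D2* rose by 1.06 to 1.32 and *UGT78D1* by 1.59 to 1.76. The other 4 were *CHIL*, a chalcone isomerase-like gene, *BAN*, the anthocyanidin reductase of proanthocyanidin synthesis, and the flavonol glycosyltransferase genes *UGT78D3* and *UGT89C1*, which lay between 0.03 and 0.66. The log2 signals of *BAN* (2.73 to 3.33) and *UGT78D3* (2.65 to 3.50) were below the lowest array median, 5.26, in every array. Such low signals may hide a change, and both genes count in the 10 and in its medians.

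After ABA the number called higher was 5 of 10 in WT, 1 in *PV-NES* and 4 of 10 in *PV-NLS*. Of all units, 2.35%, 1.85% and 1.77% were called higher in the same order. *UGT75C1* rose in all 3 genotypes, by 1.63, 1.22 and 1.88, and *UGT78D2* and *5MAT* rose in WT (1.06 and 1.05) and in *PV-NLS* (1.01 and 1.2) and held 0.59 and 0.60 in *PV-NES*. *CHIL* was called in WT only, at 1.00. The median of the 10 was 1.03, 0.30 and 0.83 in WT, *PV-NES* and *PV-NLS*, and 0.76, 0.23 and 0.58 without both members. Over all units it was -0.01, 0.01 and 0.04. *UGT78D1*, which rose with MeJA, was at 0.12, 0.05 and 0.23 with ABA.

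With ACC 5, 2 and 1 of the 10 were called lower for WT, *PV-NES* and *PV-NLS*, and none was called higher. Among all units the shares called lower were 3.41%, 0.363% and 0.633% in the same order. *DFR* was the one called in all genotypes. *UGT75C1* (-1.49), *5MAT* (-1.14) and *UGT89C1* (-1.57) were called in WT only, and their values were between -0.96 and -0.48 in the transgenic genotypes. The medians were -1.06, -0.72 and -0.62 in WT, *PV-NES* and *PV-NLS*, or -0.82, -0.57 and -0.54 without both members, and 0.03, 0.03 and 0.02 over all units. *UGT78D1* in WT, at -0.99, stayed just under the 2-fold limit. None of the 9 listed enzymes of the general phenylpropanoid pathway and none of the 21 listed regulators of the pathway, among them the MYB and bHLH factors, had a probe set that names it alone, so they are not analysed here.

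**Figure D5:**
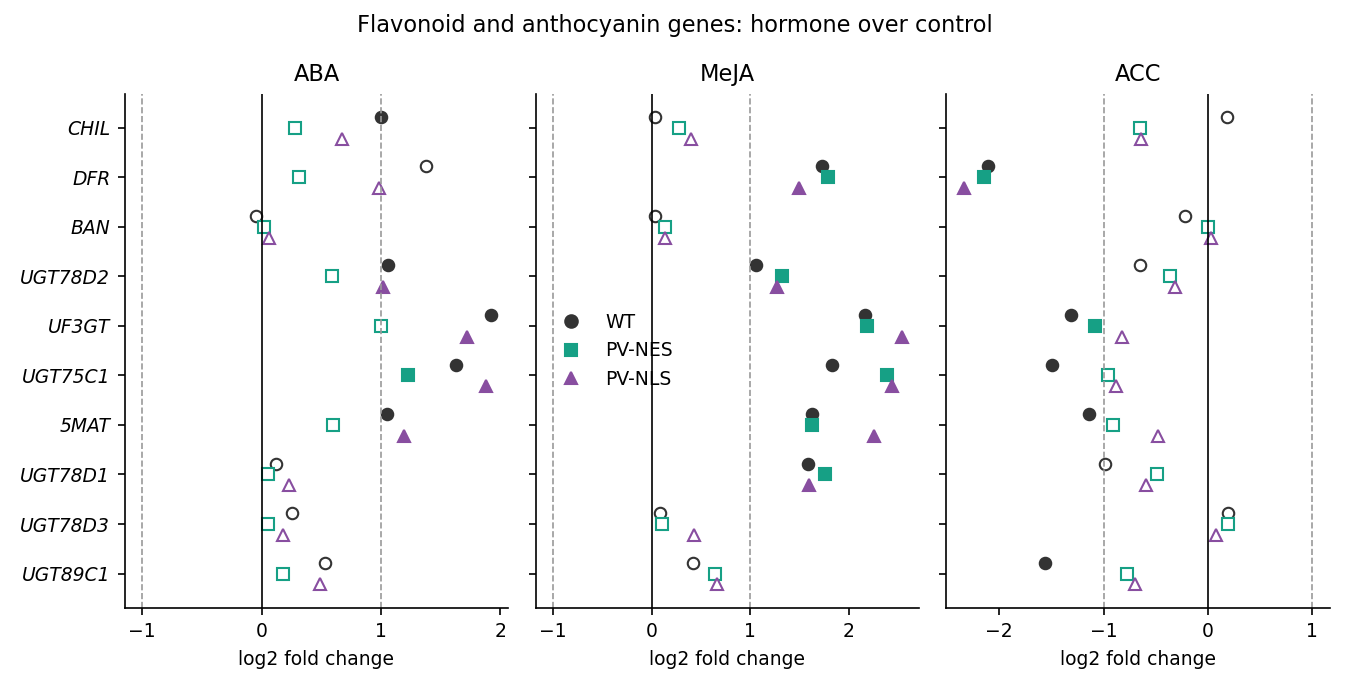
Log2 fold change of the 10 measured flavonoid and anthocyanin genes after ABA, MeJA and ACC, in WT (circles), *PV-NES* (squares) and *PV-NLS* (triangles). Filled symbols passed the call (over 2-fold, dashed lines, and adjusted p under 0.05). With MeJA 6 genes are filled in each genotype, and with ACC *DFR* lies farthest below 0 in each.

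Across the 29 arrays, the genes most like *DFR* in Pearson r among 13355 named genes were *UF3GT* (0.937), *UGT75C1* (0.933), *5MAT* (0.921), *UGT89C1* (0.907) and *UGT78D2* (0.896). The genes most like *UF3GT* were *UGT75C1* (0.990), *5MAT* (0.980), *UGT78D2* (0.978), *DFR* (0.937) and AT1G73480 (0.923). These values are a description, since all arrays share the treatments. Only probe sets that name 1 gene were ranked, so listed flavonoid genes without such a probe set could not appear. In the deviations from group means, where the treatments are removed, *UF3GT* was number 3 of the 13355 for *DFR*, and *DFR* was number 6 for *UF3GT*. *UGT75C1* had r = 0.885 with *UF3GT* there, the highest of all ranked genes, and 0.643 with *DFR*. In the deviations *UGT89C1* had r = 0.09 with *DFR*, and AT1G73480 had r = 0.22 with *UF3GT* and was number 3398. The likeness of these genes over the 29 arrays thus came mostly with the differences between groups.

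Within the glycosyltransferase genes named *UGT* together with *UF3GT*, 50 in all and gathered after their values were seen, 10, 11 and 11 were called higher after MeJA in WT, *PV-NES* and *PV-NLS* and 2, 1 and 1 lower, where 2.89%, 2.42% and 2.92% of all units were called higher. *UF3GT* was number 1, 2 and 2 of the 50 by its log2 fold change. After ABA 6, 4 and 4 of the 50 were called higher and 3, 2 and 2 lower, and *UF3GT* was number 1, 5 and 2. Of all units, 2.35%, 1.85% and 1.77% were called higher after ABA. The share of all units called lower after MeJA or ABA is not given here, so those lower counts have no background beside them. After ACC 5, 1 and 0 of the 50 were called lower, against 3.41%, 0.363% and 0.633% of all units, and *UF3GT* was number 47, 50 and 49. The median of the 50 stayed between -0.04 and 0.23 in the 9 responses.

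Other marker genes moved with the hormones as well. After MeJA, 2.89%, 2.42% and 2.92% of all units were called higher in WT, *PV-NES* and *PV-NLS*. Of 17 listed jasmonate genes 4 were measured, of which 2 were called higher after MeJA in WT and 3 in each transgenic genotype. The highest was the thionin gene *THI2.1*, by 8.01, 8.36 and 8.17 in WT, *PV-NES* and *PV-NLS*. The lowest was the methyltransferase gene *JMT* in WT (0.74) and *PV-NES* (1.61) and the defensin gene *PDF1.2* in *PV-NLS* (-0.56). The log2 signal of *PDF1.2* ranged from 2.66 to 7.79 among the controls, and 7.79 was its highest of all arrays. The mean log2 signal of both leaf markers was 9.99 to 10.6 in the controls and 8.56 to 9.67 with MeJA. It was 9.88 to 10.1 with ABA and 9.42 to 10.1 with ACC. The light-harvesting gene *LHCB4.3* fell after MeJA by 2.47, 1.51 and 1.92 on the log2 scale in WT, *PV-NES* and *PV-NLS*.

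The mean of both root markers was 4.84 to 5.56 in the controls, 5.45 to 6.75 with ABA, 4.69 to 6.67 with MeJA and 5.48 to 6.19 with ACC. Both root genes, *EXPA7* and *EXPA18*, were called higher after ABA in *PV-NES* (1.22 and 1.21) and after MeJA in *PV-NLS* (1.02 and 1.38). *EXPA7* was also called after ABA in *PV-NLS* (1.3). Neither was called after ABA in WT or after MeJA in WT and *PV-NES*. Called higher after ABA in WT, *PV-NES* and *PV-NLS* were 2.35%, 1.85% and 1.77% of all units. After MeJA these shares were 2.89%, 2.42% and 2.92%. Of 9 listed seed storage and late embryogenesis genes 2 were measured. Their mean was 2.38 to 3.10 in the controls and 5.12 to 6.86 with ABA. The late embryogenesis gene *LEA76* rose with ABA by 5.66, 4.74 and 5.43 in WT, *PV-NES* and *PV-NLS*. The other, the listed seed storage gene *PAP85*, was called higher after ABA in *PV-NLS* only. RMA gives no signal of 0, so no marker was at 0. The part of the tissue makeup of the seedlings in the *DFR* and *UF3GT* responses was not tested.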

How the data were processed

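The authors hybridised RNA of whole seedlings to ATH1 arrays and read the image files into R, and the deposited values are RMA log2 signals per probe set (base 2 was read from their range, 1.35 to 13.3). They were used without further normalisation. The 64 control probe sets were dropped from the 22810. By the annotation 13513 probe sets match 1 gene, 503 several genes and 8730 no gene. A gene with several probe sets (146 genes) was represented by the one with the highest mean, which left 22589 units.

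The 12 group means of all 29 arrays were estimated in R 4.3.3 with limma 3.58.1 (17 residual and 5.94 prior degrees of freedom), and p-values were adjusted by Benjamini and Hochberg over all units of a comparison. The fit was tested on simulated data. Differences and correlations between both genes were tested by permutation in Python 3.11.15. The genes named are *DFR*, *UF3GT*, the 5 named genes with the highest r to each, every measured gene of the flavonoid list and, of the jasmonate list, the highest and lowest under MeJA. Members and lists were chosen with earlier results of these data known, and the UGT genes and tissue markers named beside them after their values were seen.

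By the labels, arrays with the same replicate number of a transgenic genotype come from the same line. The deviations of same-line arrays from their group means over all units correlated with a median of 0.008 (*PV-NES*) and 0.109 (*PV-NLS*), compared with -0.024 and -0.059 between lines. The alternatives tried were median centring, quantile normalisation, another variance model, a filter on dim units, the line as a block, the groups compared alone, the methods' t-test and each replicate left out. Detection calls and image files were not used, and no sequence was analysed here. The number of arrays limits the precision.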

Additional observations from a re-analysis of the deposited data

How the results depend on the processing

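Median centring, the filter on dim units and the replicate block (transgenic line) changed no call of *DFR* or *UF3GT*. With the replicate block, *DFR* after MeJA in WT was 1.73 (adjusted p = 0.0213), the difference of *DFR* between the *PV-NES* and WT controls, not called, turned to -0.17, and the deviations of both genes had r = 0.798. Exchanging labels within lines gave the changes of *DFR* minus *UF3GT* an exact permutation p of 0.0312 each, the smallest that 6 lines allow. Quantile normalisation brought *DFR* after ABA in *PV-NLS* to 1.03, past the limits, and the variance model with trend and robust settings ended the call of *DFR* after MeJA in WT (1.73). With each WT hormone array fitted against the 2 WT controls alone, the spread came from those 2 controls only. The WT values of *UF3GT* after ABA (1.92), MeJA (2.17) and ACC (-1.31) and of *DFR* after MeJA (1.73) and ACC (-2.11) then lost their calls. The methods' t-test did not call *DFR* after ACC in *PV-NES* (-2.14) and *PV-NLS* (-2.34) nor *UF3GT* after ACC in *PV-NES* (-1.09). With 1 replicate left out, calls changed for *DFR* after ABA (0.81 to 1.95), MeJA (1.16 to 2.30) and ACC (-2.68 to -1.54) in WT, and for *UF3GT* after ABA in *PV-NES* (0.66 to 1.2) and after ACC in WT (-1.93 to -0.69) and *PV-NES* (-1.29 to -0.78). Differences between genotypes, none of them called, changed sign for *DFR* in the responses to ABA of *PV-NLS* minus WT (-0.96 to 0.18), to MeJA of *PV-NES* minus WT (-0.50 to 0.63) and *PV-NLS* minus WT (-0.80 to 0.34), and to ACC of *PV-NES* minus WT (-0.60 to 0.54), *PV-NLS* minus WT (-0.80 to 0.34) and *PV-NES* minus *PV-NLS* (-0.18 to 0.76). For *UF3GT* they did so in the same order of comparisons at -0.82 to 0.42, -0.61 to 0.64, -0.26 to 0.99, -0.40 to 0.84, -0.14 to 1.11 and -0.47 to 0.0418. The correlation of both genes within MeJA ranged from -0.26 to 0.953. Of all values recomputed for the responses, 260 kept their side of the limits, 17 lost and 5 gained a call.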
